A study of Oryza sativa with 6 samples.

Results

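The MATE and ALMT genes of rice encode membrane transporters, and their transcript levels were compared in root tips of Japonica seedlings before and after aluminium (Al). Members were the genes whose deposited product description named them a transparent testa 12 protein or ALMT1. The search also took in other names of the families, such as MATE efflux protein. It was set to leave out the citrate transporters OsFRDL1, OsFRDL2 and OsFRDL4, whose descriptions did not match in any case. The 55 matching probe sets belonged to 40 genes, 31 MATE and 9 ALMT, among 34896 genes with a probe set of their own. The probe set with the highest mean signal stood for each gene.

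MATE (multidrug and toxic compound extrusion) proteins carry organic compounds out of the cytosol, mostly in exchange for protons or sodium ions. Members of the family in plants move flavonoids, alkaloids, phenolics or citrate, and TRANSPARENT TESTA 12 of Arabidopsis, after which most of these rice genes are described, loads flavonoids into the vacuole of the seed coat. ALMT proteins are anion channels named after the wheat protein ALMT1, which releases malate from root tips under Al. Malate and citrate bind Al ions outside the root and so lower their toxicity. Other ALMT proteins work in guard cells or at the vacuole membrane.

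The deposited annotation predicted membrane-spanning stretches for every member, a property that the choice did not use. The 31 MATE proteins had 4 to 12 predicted spans (median 11.0), and 15 of them had 12. The 9 ALMT proteins had 5 to 7 (median 6.0). Predictions of at least 9 spans, more than for any ALMT protein, were given for 27 MATE proteins.

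Each group held 3 Affymetrix Rice arrays, with total RNA from tips of 0 to 1 cm. Seedlings of both groups had been floated on 0.5 mM CaCl2. The first group was sampled before Al was given, and the second when 5-d-old seedlings had spent 6 h with 50 µM Al added to that salt solution, then at pH 4.5. For the solution before Al the labels give no pH, and no tips kept for 6 h without Al were used here, so Al, time and possibly pH differed together. The number of present calls per array was 24836 to 25492, out of 57258 probe sets. Root tip markers were present on all 6 arrays: QHB, OsSHR1, OsSCR1 and OsPIN2. The mature root marker Lsi1 was also present on all 6 arrays. Its mean log2 signals, 12.84 before Al and 12.53 after it, were above those of the named root tip markers. Its change of -0.31 ± 0.10 did not pass (limma, adjusted p = 0.0509). Of 18 genes of green tissue (chlorophyll a-b binding proteins and the small Rubisco subunit), 5 were present on all 6 arrays and 7 on no array before Al. Their summed linear signal was 1967 to 2033 before Al and 1597 to 1827 after it. Without LOC_Os02g05830, which was detected in the first group alone and was left out after its values were seen, the sums were 1608 to 1618 and 1574 to 1757, which overlap. Of the 8 tested genes of green tissue, 1 was called higher and 2 lower. OsSCR1, of the ground tissue, fell by 0.93 ± 0.20 and OsPIN2, an auxin efflux carrier, fell by 0.35 ± 0.08 (log2; limma, adjusted p = 0.00603 and 0.00816). For the OsSCR1 probe set the annotation notes cross-hybridisation with LOC_Os12g02870, so its signal may come in part from that locus. Whether these shifts in tissue markers contributed to the values below was not tested. In such bulk samples, fewer cells of a type and less RNA per cell cannot be told apart.

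Many MATE genes were expressed in the root tip, whereas most ALMT genes were not detected. Of the 31 MATE genes, 21 were called present on all 6 arrays and 5 on none. Of the 9 ALMT genes, 2 were present on all 6 arrays and 6 on none. Present on at least 3 arrays, and so tested, were 24 MATE genes and 3 ALMT genes, 67.5% of the members. Counted in the same way, with 1 probe set each, 18041 of 34896 genes were tested. Of all probe sets on the array, weaker ones of the same gene included, 44.2% were tested.

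After Al, 8 MATE genes rose and 5 fell, 11 tested MATE genes did not pass, and none of the 3 tested ALMT genes passed. The test was limma with Benjamini-Hochberg adjustment over the 25283 probe sets tested, at an adjusted p under 0.05, and log2 changes are given with their SE. The 13 called members were 48.1% of the 27 tested, beside 30.2% of all tested probe sets (14.3% higher and 15.9% lower) and 34% of all tested genes counted with 1 probe set each. LOC_Os10g20350 was present only after Al and passed the filter through those arrays. Among the 26 members present in both groups, 7 rose and 5 fell, or 46.2%. The median change of the 27 was 0.07 (log2) and the median size of change 0.45, beside -0.04 and 0.22 over all tested genes.

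Most of these changes were modest. On the probe set used for each gene, at least 2-fold changes were found for 2 members, both higher, and 7.07% of all tested probe sets were called with such a change. Counted with 1 probe set each, 1408 of 18041 tested genes were. The tested members ranged from -0.91 to 1.43 (log2 change), the upper end belonging to LOC_Os10g20350, which was not detected before Al. The groups did not overlap for 17 of the 27, and these 17 included all 13 called members. Beside them, the groups did not overlap for 43.7% of all tested probe sets and for 8575 of 18041 tested genes with 1 probe set each. The plot of changes orders the 27 genes by size.

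**Figure D1:**
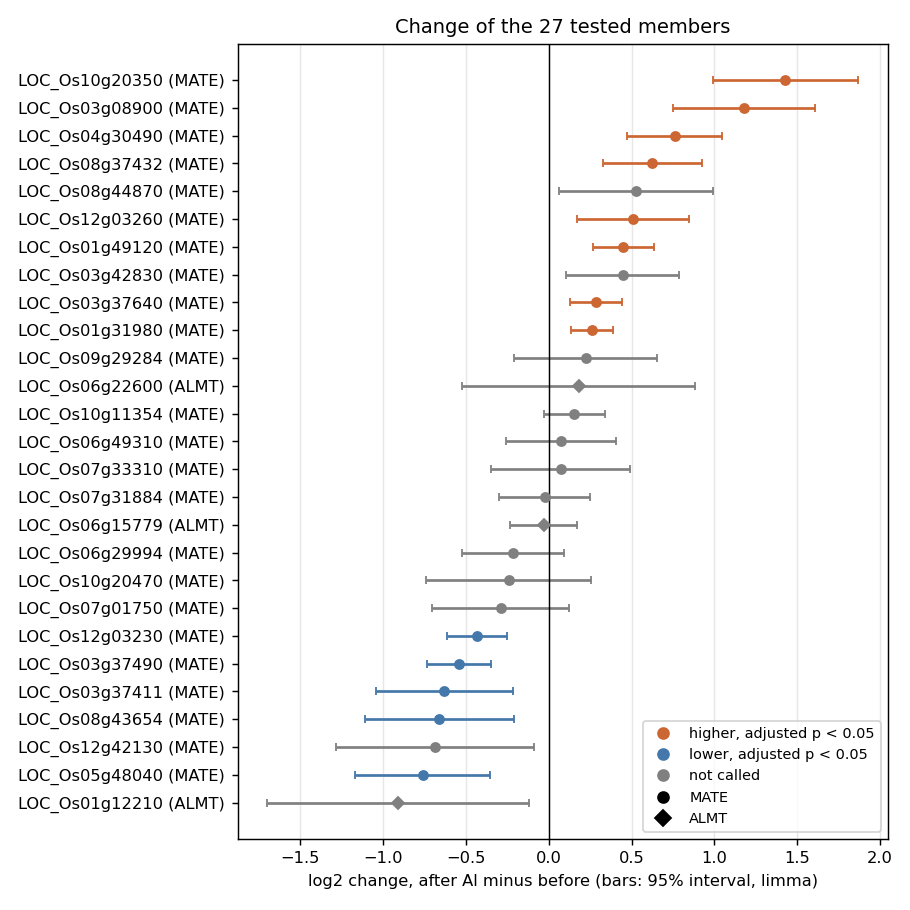
Log2 change (after Al minus before) of the 27 tested members on the horizontal axis, with 95% intervals from limma (n = 3 arrays per group). The 8 genes called higher (orange) and 5 called lower (blue) are all MATE (circles), and the 3 ALMT genes (diamonds) are grey, the colour of genes that were not called.

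LOC_Os10g20350 had the highest log2 change among the tested members. It is described as a transparent testa 12 protein and lies on chromosome 10 (9900449 to 9903015, minus strand; the build of all coordinates here is not given in the sources used). Its log2 signals were 5.77, 5.70 and 5.64 on the arrays before Al, where it was not called present. After Al they were 7.05, 7.35 and 7.001, all called present. The arrays of each group lay close together and far from those of the other. Since it was not called present before Al, its rise has only a bound, at least 2.69-fold (group means 5.70 and 7.13; limma, adjusted p = 0.000409). The probe set is marked as shared and its annotation notes cross-hybridisation with the nearby locus LOC_Os10g20380, so how much of the signal belongs to this gene is uncertain. The second probe set of LOC_Os10g20350 was present on no array.

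LOC_Os03g08900 (chromosome 3, 4593351 to 4595351, plus strand), called OsMATE1 in earlier work, rose next most. Its log2 signals were 6.26, 6.45 and 6.02 before Al and 7.22, 7.47 and 7.59 after it. Every array after Al was above every array before it by more than the spread within either group. The log2 change was 1.18 ± 0.19 (limma, adjusted p = 0.00115), or 2.27-fold. This gene was present on all 6 arrays, and 9 probes of its set matched the locus.

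A pair of MATE genes on chromosomes 4 and 8 also rose, the second by an amount that depended on the probe set. LOC_Os04g30490 (chromosome 4, 18025674 to 18028884) was at 7.88, 7.60 and 7.88 before Al and at 8.43, 8.58 and 8.64 after it. Its groups were well apart, with a log2 change of 0.76 ± 0.13 (limma, adjusted p = 0.00144), or 1.69-fold. LOC_Os08g37432 (chromosome 8, 23579872 to 23581489) was at 7.99, 7.98 and 8.10 before Al and at 8.45, 8.89 and 8.62 after it. It rose by 0.63 ± 0.13 (limma, adjusted p = 0.00550). The probe set of LOC_Os08g37432 was assigned to the gene by genome position, with 0 probes matching the transcript. A second, weaker probe set of this gene, with 11 matching probes, rose by 1.21 ± 0.17 or 2.32-fold (limma, adjusted p = 0.000449), so the gene's probe sets gave the same direction and different sizes.

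Smaller rises were measured for genes with strong signals and little spread. LOC_Os01g49120 (chromosome 1, 28561907 to 28565479) went from 9.97, 10.02 and 9.95 to 10.37, 10.34 and 10.58, a log2 change of 0.45 ± 0.08 (limma, adjusted p = 0.00224). LOC_Os01g31980 (chromosome 1, 17831183 to 17839151) went from 11.30, 11.30 and 11.33 to 11.51, 11.57 and 11.64. Its change of 0.26 ± 0.06 (limma, adjusted p = 0.00643) was the smallest among the called members, about 1.20-fold, and still exceeded the spread of either group. Both genes lie on chromosome 1 and neither probe set is marked as shared. The second probe set of LOC_Os01g49120 had a change of 0.40 ± 0.20 and did not pass (limma, adjusted p = 0.166).

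Among the 5 called falls, that of LOC_Os05g48040 (chromosome 5, 27458857 to 27462652), called OsMATE2 in earlier work, was the largest. Its probe set is marked as shared. It was nearly constant before Al, at 10.06, 10.09 and 10.08. After Al it was at 8.89, 9.78 and 9.28, lower on every array but with wide spread, the first array lowest. It fell by 0.76 ± 0.18 on the log2 scale (limma, adjusted p = 0.0104), or fell by 41.0%. The fall was 0.99 without the second array after Al (limma, log2 change -0.99, adjusted p = 0.000508) and 0.55 without the first (log2 change -0.55, adjusted p = 0.0179). The call was lost without the intensity trend (limma, adjusted p = 0.0528). Its second probe set, not marked as shared, had a change of -0.64 ± 0.25 and did not pass (limma, adjusted p = 0.0839). OsMATE1 and OsMATE2, which carry names from the same work, thus differed in direction, each against its own groups.

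LOC_Os08g43654 (chromosome 8, 27459991 to 27465855) also fell, with a less secure call. Its signals were 7.03, 7.24 and 7.03 before Al and 6.63, 6.59 and 6.10 after it, without overlap. It fell by 0.66 ± 0.20 (limma, adjusted p = 0.0324). Leaving out the third array after Al ended the call (adjusted p = 0.0804, log2 change -0.49), as did leaving out any single array before Al (0.0662, 0.110 and 0.0665). It was also lost with quantile normalization (0.0551) and without the filter (0.0844), all by limma.

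**Figure D2:**
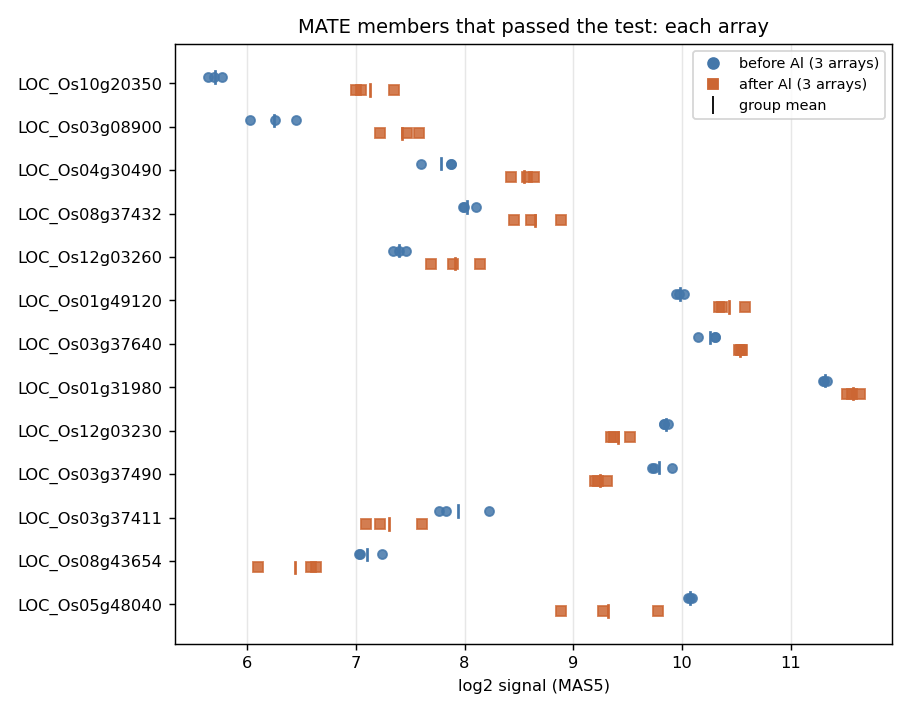
Log2 signal on each of the 6 arrays for the 13 called members, which are all MATE genes, with circles before Al, squares after Al and short bars at the group means (n = 3 each). Every gene has its 2 groups apart, and LOC_Os05g48040 has the widest spread after Al, from 8.89 to 9.78.

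Several members lie next to each other in the genome, and neighbours did not all move alike. With a largest gap of 300.0 kb between alignments, 14 members, all MATE, fell into 5 groups of neighbours. The chromosome 3 group of 4 genes spans 150.3 kb, and 3 of its genes were tested. LOC_Os03g37490 (20747774 to 20754379, minus strand) was at 9.72, 9.74 and 9.91 before Al and at 9.31, 9.20 and 9.23 after it, and fell by 0.54 ± 0.09 (limma, adjusted p = 0.00100). LOC_Os03g37640 (20822980 to 20830341, minus strand), on the same strand, was at 10.31, 10.31 and 10.15 before Al and at 10.55, 10.53 and 10.54 after it. It rose by 0.28 ± 0.07 (limma, adjusted p = 0.0126), a call narrowly lost without the third array before Al (adjusted p = 0.0511). These neighbours thus passed in opposite directions.

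LOC_Os03g37411 (20680017 to 20701948), at the other end of the chromosome 3 group, was at 7.76, 8.22 and 7.83 before Al and at 7.60, 7.23 and 7.09 after it. It fell by 0.63 ± 0.18 (limma, adjusted p = 0.0271), although its nearest arrays, 7.76 and 7.60, were close. The call was lost without the second array before Al (adjusted p = 0.104) and without the second array or the third array after it (0.0814 and 0.0776). It was also lost without the filter (0.0592) and without the intensity trend (0.0524), all by limma. The other gene of the group, LOC_Os03g37470, was present on no array, at 1.94 to 4.46 (log2 signal).

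In the larger chromosome 10 group, 4 genes span 72.6 kb around LOC_Os10g20350, described above, and the other genes did not pass or were not tested. LOC_Os10g20470 was present on 5 of 6 arrays and had a change of -0.24 ± 0.22 (limma, adjusted p = 0.465). LOC_Os10g20450 was present on 2 arrays after Al and none before, at 6.21, 4.83 and 6.19 before and 5.82, 6.01 and 6.25 after, with overlapping groups. LOC_Os10g20390 was present on no array. No other member of the group was called, but only LOC_Os10g20470 among them was tested, and the difference between neighbours was not tested. The signal of LOC_Os10g20350 may itself come in part from the nearby LOC_Os10g20380, noted above for cross-hybridisation.

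The pair on chromosome 12 spans 20.3 kb and moved in opposite directions. LOC_Os12g03230 (1234636 to 1238237) was at 9.84, 9.88 and 9.83 before Al and at 9.35, 9.52 and 9.38 after it. It fell by 0.43 ± 0.08 (limma, adjusted p = 0.00254), with tight and separate groups. LOC_Os12g03260 (1250404 to 1254942) was at 7.40, 7.46 and 7.34 before Al and at 7.89, 8.14 and 7.69 after it, and rose by 0.51 ± 0.15 (limma, adjusted p = 0.0287). Both have close copies on chromosome 11: the annotation notes cross-hybridisation with LOC_Os11g03240 for the first and LOC_Os11g03500 for the second, so either signal may come in part from the copy. The call of LOC_Os12g03260 was lost without the first or second array after Al (limma, adjusted p = 0.0621 and 0.111), without any single array before it (0.0685, 0.0548 and 0.0827) and without the filter (0.0583).

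**Figure D3:**
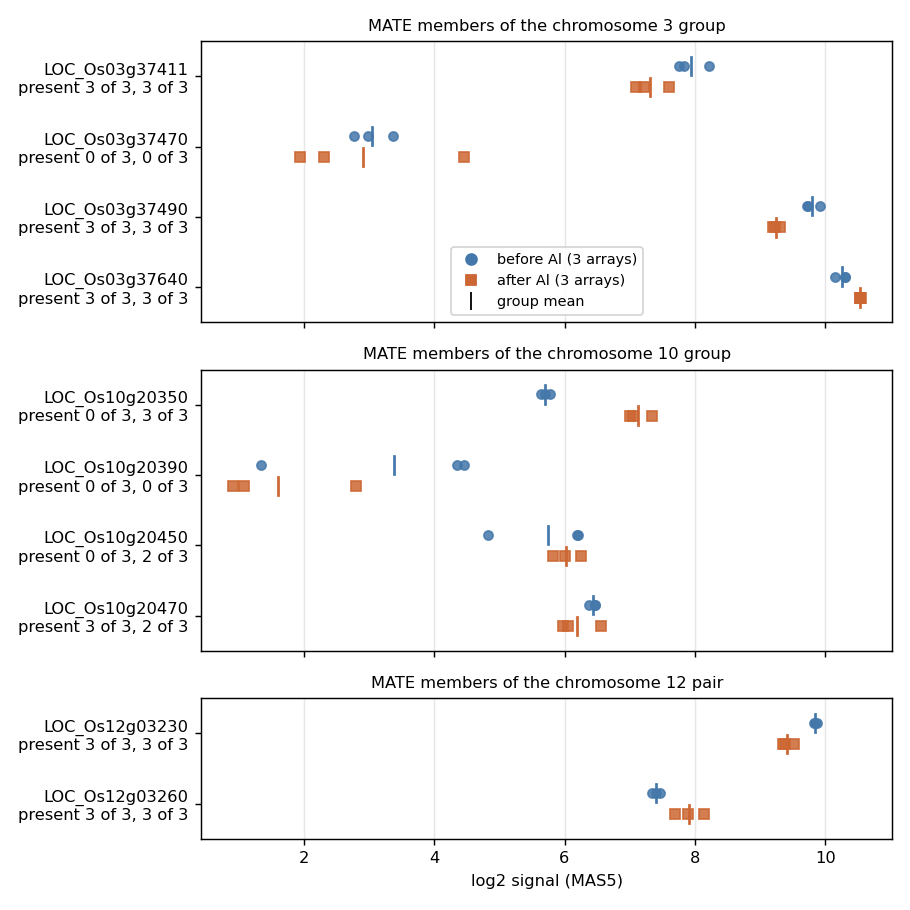
Log2 signal on each array for neighbouring MATE genes on chromosomes 3, 10 and 12 in the order of their positions, with circles before Al, squares after Al, bars at group means and the number of arrays called present in each group of 3. On chromosome 3, LOC_Os03g37411 and LOC_Os03g37490 are lower and LOC_Os03g37640 is higher after Al, and on chromosome 12 the pair moves in opposite directions.

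LOC_Os10g11860 (chromosome 10, 6342761 to 6347125) went undetected after Al. Present on 2 arrays in all, it was not among the tested genes, and it is named here after its values were seen. Its signals were 6.80, 7.20 and 6.68 before Al, present on all but the first array. They were 4.56, 2.66 and 4.65 after Al, present on none. Its groups were far apart, at least 7.33-fold lower after Al, with no test in the main fit. Without the filter its log2 change was -2.94 ± 0.55 (limma, adjusted p = 0.00737). Its neighbour LOC_Os10g11354, present on all 6 arrays, had a change of 0.15 ± 0.08 and did not pass (limma, adjusted p = 0.200).

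Some of the other tested MATE genes lay near the threshold and others near 0; those not described above are named here after their values were seen. LOC_Os03g42830 missed the threshold narrowly, at 8.43, 8.25 and 8.58 before Al and 8.62, 9.16 and 8.81 after it (log2 change 0.45 ± 0.15, limma, adjusted p = 0.0519). It passed without the first array after Al (adjusted p = 0.0237) and with presence required on all 6 arrays (0.0494). LOC_Os08g44870 (0.53 ± 0.21) and LOC_Os12g42130 (-0.69 ± 0.27) had groups without overlap and did not pass (limma, adjusted p = 0.0864 and 0.0808). The 95% intervals of the log2 change ran from -0.30 to 0.25 for LOC_Os07g31884, from -0.35 to 0.49 for LOC_Os07g33310 and from -0.21 to 0.66 for LOC_Os09g29284, and each includes 0. For LOC_Os06g29994 and LOC_Os07g01750 the changes were -0.22 ± 0.14 and -0.29 ± 0.18.

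Where a member had more than 1 tested probe set, the direction was the same in 4 of 5 genes. The exception was LOC_Os06g49310, whose stronger probe set had a change of 0.07 ± 0.15 and whose second had -0.68 ± 0.24 (limma, adjusted p = 0.761 and 0.0598). Neither passed, and which of them follows the transcript is not known.

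**Figure D4:**
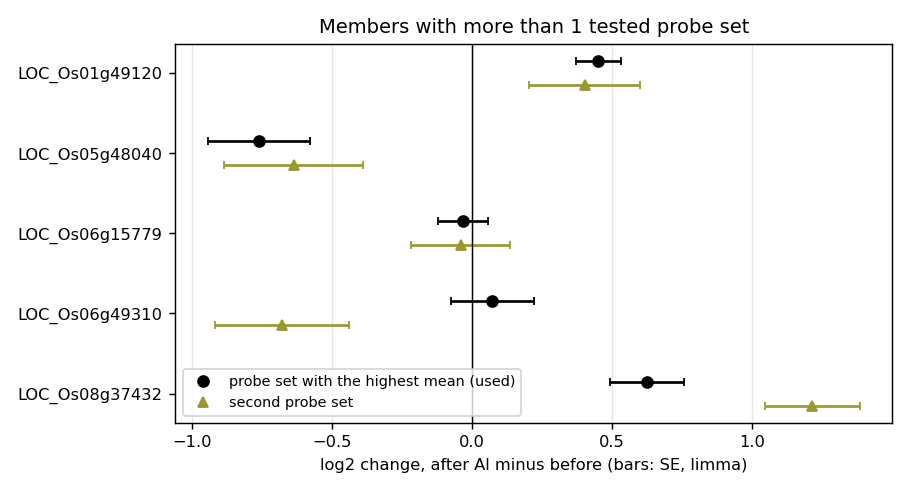
Log2 change (after Al minus before) with SE from limma for the 5 members with more than 1 tested probe set, black circles for the probe set used and triangles for the second. Only LOC_Os06g49310 has its 2 estimates on different sides of 0.

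Of the ALMT genes, those detected in the root tip did not pass the test. LOC_Os06g15779 (chromosome 6, 8959006 to 8960604) was at 10.82, 10.81 and 11.07 before Al and at 10.80, 10.81 and 10.99 after it. The array values of the groups were interleaved, and the log2 change was -0.03 ± 0.09 with a 95% interval from -0.23 to 0.17 (limma, adjusted p = 0.830). The interval of this probe set leaves out a change of 0.26 in either direction, the smallest among the called MATE genes. This probe set is marked as shared. The second one, not so marked, was dimmer, at means of 7.28 before Al and 7.24 after it. It gave -0.04 ± 0.18, and its 95% interval of -0.44 to 0.36 includes 0.26 in both directions (limma). How much of the brighter signal belongs to this gene was not tested.

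LOC_Os01g12210 (chromosome 1, 6655950 to 6659315), known as OsALMT4, a malate-permeable channel, was at 5.83, 6.67 and 6.46 before Al and at 4.84, 6.02 and 5.37 after it. The highest array after Al lay above the lowest before it. The log2 change of -0.91 ± 0.35 was the most negative of all tested members and did not pass (limma, adjusted p = 0.0817, 95% interval -1.70 to -0.12). It passed without the second array after Al (log2 change -1.22, limma, adjusted p = 0.0344). LOC_Os06g22600 (chromosome 6, 13142806 to 13145066) was at 5.91, 5.96 and 5.84 before Al and at 6.45, 6.44 and 5.37 after it. A single array after Al, the third, was low and was not called present, and the change was 0.18 ± 0.31 (limma, adjusted p = 0.719). Without that array it was 0.54 and did not pass (limma, adjusted p = 0.119).

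The other 6 ALMT genes were called present on no array in either group. They were LOC_Os01g53570, LOC_Os02g49790, LOC_Os04g34010, LOC_Os04g47930, LOC_Os10g42180 and LOC_Os02g45160, the last known as OsALMT7, a malate transporter of the developing panicle. Their log2 signals ran from 0.48 to 7.29, with means of 1.85 to 6.95 before Al and 2.40 to 6.32 after it. The highest were those of LOC_Os01g53570, at 7.29, 6.50 and 7.05 before Al and 6.34, 6.35 and 6.26 after it, not called present by a probe set marked as shared. A weaker probe set of LOC_Os01g53570 was called present on 2 of 6 arrays. No call of presence after Al was thus gained by any of these genes on the probe set used, and 5 of them had arrays within a group that differed by more than 1 unit of log2.

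**Figure D5:**
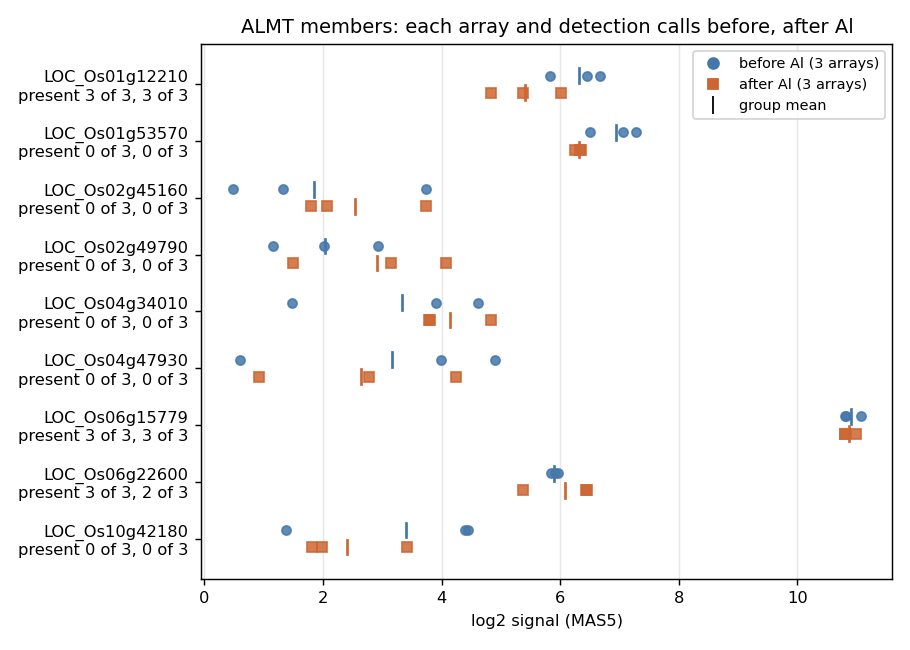
Log2 signal on each array for the 9 ALMT genes, with circles before Al, squares after Al, bars at group means and the number of arrays called present in each group of 3. LOC_Os06g15779 lies near 10.9 in both groups, and the 6 genes present on no array scatter between 0.48 and 7.29.

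The citrate transporters of the MATE superfamily left out of the members all rose in the same comparison. OsFRDL1, which loads citrate into the xylem for iron transport, rose by 1.16 ± 0.21 (limma, adjusted p = 0.00200), beside rises of 1.04 ± 0.07 for OsFRDL2 and at least 54.8-fold for OsFRDL4.

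Other genes of organic anion metabolism were read from lists of product words. Each list is set beside all tested genes, of which 34% were called, with a median log2 change of -0.04. Of 45 tested enzymes of organic acid metabolism, 3 rose and 5 fell, or 17.8% beside 34%, with a median log2 change of -0.03. The NADP-dependent malic enzyme LOC_Os05g09440, which turns malate into pyruvate, was at 8.19, 7.79 and 7.80 before Al and 12.41, 12.34 and 12.33 after it, a rise of 4.43 ± 0.11 (limma, adjusted p = 1.33e-08). The ATP-citrate synthase LOC_Os12g37870, which splits citrate in the cytosol, rose by 0.28 ± 0.08. The mitochondrial malate dehydrogenase LOC_Os08g33720 fell by 0.39 ± 0.05 and the isocitrate dehydrogenase subunit LOC_Os02g38200 fell by 0.38 ± 0.07. Apart from the malic enzyme, the called changes of this list were below 2-fold. The words also took in the 3-isopropylmalate dehydrogenases LOC_Os01g16900 and LOC_Os03g45320 and the methylisocitrate lyase LOC_Os04g31700, all tested and not called. The share called is thus one of product words here too.

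Of 14 tested genes described as carriers of dicarboxylates or citrate, 6 rose and 3 fell, or 64.3% beside 34% of all genes, with a median of 0.06. The mitochondrial 2-oxoglutarate/malate carrier LOC_Os08g37370 rose by 0.82 ± 0.07 and LOC_Os03g05390, described as a citrate transporter family protein, by 0.62 ± 0.07. The chloroplast 2-oxoglutarate/malate translocator LOC_Os12g33080 fell by 0.41 ± 0.07, and LOC_Os09g31130, described as a tonoplast dicarboxylate transporter that would move malate into the vacuole, fell by 0.86 ± 0.15. The list also took in LOC_Os03g01700, known as Lsi2, a silicon exporter, which rose by 0.71 ± 0.10. Its known role is thus not the one that the name of the list gives. LOC_Os10g39980, also described as a citrate transporter family protein, had the largest rise of the list, 1.78 ± 0.29. Product words do not show what these genes carry. The share called is thus one of descriptions, not of known organic anion carriers.

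TRANSPARENT TESTA 12 carries flavonoids, and of 77 tested genes described as flavonoid enzymes 19 rose and 10 fell, or 37.7%, near the 34% of all genes, with a median of -0.01. The anthocyanidin glucosyltransferase LOC_Os01g53350 rose by 4.16 ± 0.17 and the dihydroflavonol reductase LOC_Os02g08420 by 1.47 ± 0.06. The glucosyltransferases LOC_Os07g32010 and LOC_Os01g50200 fell by 1.03 ± 0.06 and 0.57 ± 0.07. Product words for glucosyltransferases cover many enzymes of other small molecules, so this list is broader than its name.

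Vacuolar proton pumps, which build the gradient that vacuolar MATE proteins use, mostly did not pass. Of 26 tested, 2 rose and 1 fell, or 11.5% beside 34% of all genes, with a median of 0.03. The proton-pumping pyrophosphatase LOC_Os01g23580, present on 1 array before Al and 3 after it, rose by 1.66 ± 0.17, while another, LOC_Os02g09150, fell by 0.33 ± 0.10. The ATPase subunit LOC_Os03g14690 rose by 0.22 ± 0.07. All values of these lists are log2 changes from the same limma fit, and each gene named as rising or falling had an adjusted p under 0.05.

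In the authors' deposited table, 13 of all 40 members, untested ones included, had a p-value under 0.05, 8 with a fold above 1 and 5 below. The share of all probe sets under that p-value was not counted here, and the table rests on the same arrays. Of the 13, 11 were also called by limma, but LOC_Os10g11354 did not pass and LOC_Os10g11860 was not tested. That table gave a fold of 2 or more for 2 of the 13, LOC_Os10g20350 and LOC_Os03g08900, and of 0.5 or less for 1, LOC_Os10g11860.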

How the data were processed

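The signals were deposited on a log2 scale, made by the authors with MAS5 per the submitters' processing notes. The sources used here state neither its version nor its scaling target. Per the file headers, the authors' table also gives detection calls (present, marginal or absent), a p-value and a fold change (ratio of the groups), and these last were used only where credited to it. The 2 deposited tables held the same log2 values (largest difference 0.0).

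Probe sets with a present call on 3 or more of the 6 arrays were tested with limma 3.58.1 in R 4.3.3 (lmFit, eBayes with an intensity trend, two-sided, 4 residual degrees of freedom), with Benjamini-Hochberg adjustment over 25283 probe sets. The fit was tested on simulated data. The number of arrays limits the precision, and p-values measure the spread between the 3 samples of a group, called biological repeats in the labels. Where a member was present on no array of a group, its fold is a bound. It sets the brighter group's mean against the dim group's, with dim signals raised, where lower, to that array's lowest present signal (2.07 to 2.98). Such a bound concerns detection and leaves out the spread between arrays. The product text fixed the members. Members, lists and tests were chosen with earlier results of these data known. Named were all ALMT members, all called MATE members and the 5 MATE members with the highest signal before Al. Members present on all arrays of 1 group and none of the other were also named. Up to 2 called genes per list and direction, with the smallest adjusted p, were named too. Others were named after their values were seen. OsMATE, OsALMT, OsFRDL, Lsi1 and Lsi2 names come from prior knowledge. The RefSeq gene table was not used here. Alternatives are given in the closing section.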

Additional observations from a re-analysis of the deposited data

How the results depend on the processing

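Across 13 alternative settings, 323 of 347 values of the 27 tested members kept their side of the threshold, 19 called values no longer passed, 5 uncalled values passed and 0 called values changed sign. Among 4 uncalled members, 7 values of at most 0.055 in size had the opposite sign. Of the 13 called members, 8 kept their call in every setting that tested them and 5 lost it at least once, each named above. Of those 8, LOC_Os10g20350 was tested in 12 settings, since presence on all 6 arrays leaves it out. Other choices of probe set were counted outside the 13 settings. Leaving out shared probe sets gave 7 members higher and 4 lower. Taking the probe set with the lowest p for each gene gave 8 and 5. The calls of LOC_Os10g20350 and LOC_Os05g48040 rest on probe sets marked as shared. The number of members called higher ran from 6 to 8 when each array was left out in turn and the number called lower from 3 to 5. The lower count was 3 without the third array after Al, without the second array before Al, and without the intensity trend. Over all probe sets, leaving out 1 array gave 3000 to 3383 higher and 3126 to 3905 lower, from 3626 and 4013. Without the detection filter, which raises the probe sets tested to 57258, the organic acid list had 1 higher, the flavonoid list 5 lower (10 with it), and the vacuolar pump list 1 higher and 0 lower (from 2 and 1). Repeat numbers of the titles were shared by the groups, although the deposited columns number the arrays after Al differently (2 to 4), and same-numbered arrays deviated together only weakly (correlations 0.0696, 0.0011 and 0.0865), and the second array before Al correlated better with the first after Al (0.0212). With the titles' repeat number as a replicate block, 9 members were higher and 6 lower, LOC_Os08g44870 (limma, adjusted p = 0.0433) and LOC_Os01g12210 (adjusted p = 0.0284) being added, with 3710 and 4134 over all probe sets. The median log2 change of all probe sets stayed between -0.09 and -0.03 in all settings. With 3 arrays a group, dim members had SEs of up to 0.35 (log2) and bright ones of 0.06.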

Other observations

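Relatives outside the members were also on the array. By product words (antiporter/drug transporter, anthocyanin permease) or the domain column, 20 further genes were found. Of these, 8 were tested, with 3 higher and 1 lower after Al, beside 34% of all tested genes called in either direction. LOC_Os03g62270, described as an antiporter/drug transporter, rose by 1.13 ± 0.20 (limma, adjusted p = 0.00185), from a mean log2 signal of 7.23 to 8.37. The other called rises were OsFRDL1 and OsFRDL2. LOC_Os01g73690, of the same description, fell by 0.32 ± 0.10 (limma, adjusted p = 0.0291). These genes were chosen after the members and carry no test as a group.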
